A study of Cucumis melo with 4 samples.

Results

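The genes of sugar transport and sucrose cleavage were followed through transcript libraries of 4 melon (Cucumis melo) sex types. The library files list 76260 assembled unigenes (transcripts put together from the reads) and name a melon coding sequence (CDS) with a product for 11737 of them. A unigene was taken where that product held one of a set of words for sugar carriers, sucrose enzymes or trehalose, which gave 57 unigenes. A check across the deposited tables, given below, found that these product names do not go with the unigenes they stand beside. The 57 unigenes are therefore called by their number and their label only, and their levels cannot be read as levels of sugar genes. The authors' comparison lists name 13 sugar-related CDS, with levels that belong to other unigenes. These 13 are described first, although the check reached only 2 of them directly.

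Loci a and g set these sex types. Hermaphrodite plants bear bisexual flowers, andromonoecious plants male and bisexual flowers, gynoecious plants female flowers, and monoecious plants male and female flowers. By the sample labels the genotypes are aaGG for the hermaphrodite, aagg for the andromonoecious, AAgg for the gynoecious and AAGG for the monoecious library, while headers of the deposited locus tables exchange aaGG and aagg between hermaphrodite and andromonoecious plants. The sex type therefore names each library below, and g is written as labelled g to mark that its allele comes from the sample labels. Each library is 1 bulk, mixed from equal amounts of RNA of several recombinant inbred lines. The RNA came from 4 stages: true leaves of seedlings with 2 of them, young leaves with axillary buds taken 1 week after planting out, flower buds shorter than 2 mm, and buds close to opening. No sex type has a second library, and the hermaphrodite library was run on another flow cell, so that flow cell and hermaphrodite plants cannot be told apart. The totals were 27.04 M reads for the hermaphrodite, 25.51 M for the andromonoecious, 26.09 M for the gynoecious and 26.39 M for the monoecious library. Levels are RPKM, that is, reads scaled by unigene length in kilobases and by library total in M, and read counts are those listed by the authors or recovered from RPKM.

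Plants move carbon mainly as sucrose, made in leaf cytosol by sucrose-phosphate synthase and sucrose-phosphatase. SWEET proteins let sugars pass a membrane down their gradient, SUC proteins load sucrose with protons, and sugar transport proteins (STP) take hexoses into cells. Sucrose synthase and invertases (beta-fructofuranosidases) cleave sucrose at its destination, and trehalose-phosphate serves as a signal of sucrose supply. Cucurbits such as melon also load raffinose-type sugars into the phloem. Flower buds and pollen are sink tissues that import sugar.

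The check of the labels compared the library files with the authors' lists of genes that differ between pairs of sex types. The list for gynoecious against monoecious plants names unigenes by number, and 1049 of them occur in the library files. Only 16 of these had the same CDS in both sources, and 816 are marked as not mapped in the library files. Only this list gives unigene numbers. The unigene of each entry in any list was therefore found here by matching its RPKM in the 4 libraries to the library files. This gave 1 unigene for 2774 of 2831 entries, and listed unigenes below are meant in this sense. The deposited BLAST table, which aligns CDS with unigenes, shows the same mismatch of CDS inside its own rows. For 375 listed unigenes that stand in it, the rows follow the order of the CDS named in the lists without a single step down (0 steps, Spearman rho 1.0000 across unigenes). The CDS that the BLAST table itself prints in those rows gave a rho of -0.006 and was the listed CDS in 1 of the 375 rows. These rows reach CDS number 6051, so of the 13 listed sugar CDS only SWEET17 and acid beta-fructofuranosidase (2 of 13) have a unigene among them. For the other CDS the pairing of CDS and levels in the lists is taken as the authors give it.

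The product names in that table run alphabetically instead, in 98.8% of its 11804 steps when hyphens and apostrophes are passed over. The unigenes run in CDS order and the names beside them in name order, and the library files carry these names for 11140 unigenes. All 57 unigenes with a sugar label stand in the BLAST table. Listed neighbours confine the CDS of each to a stretch of 3 to 38 CDS (median 9), and in 0 of 57 cases did the named CDS fall in that stretch. Of the 597 unigenes with a CDS that are not in the BLAST table, 23 are listed, and 23 of 23 had the same CDS in both sources.

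**Figure D1:**
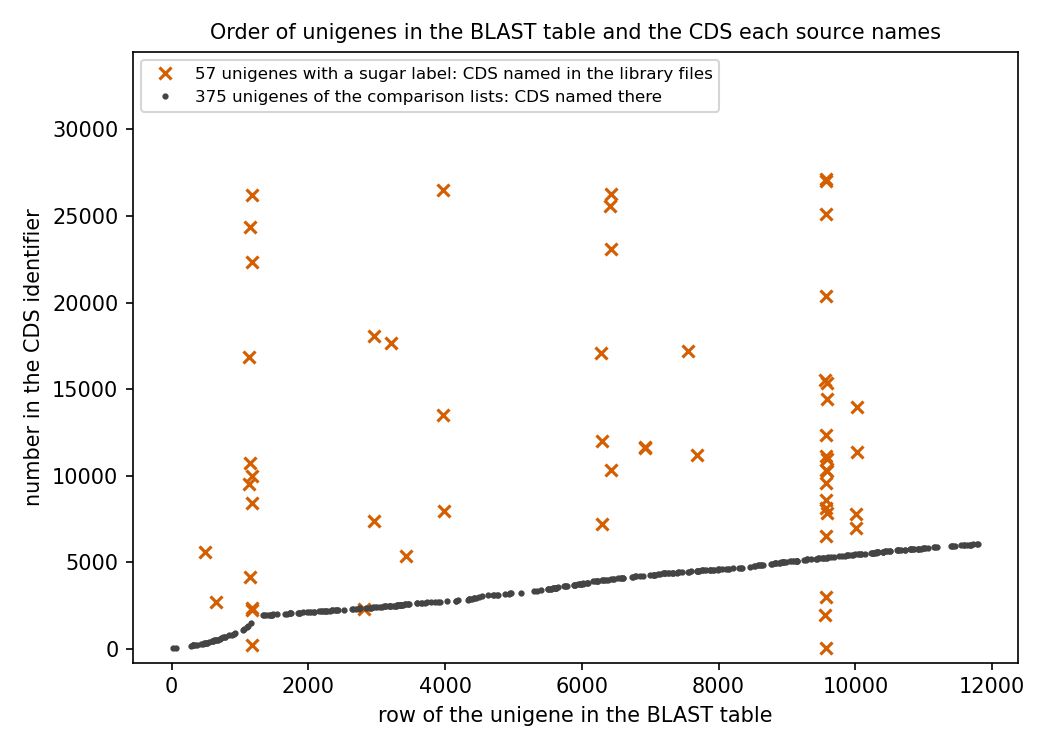
The horizontal axis is the row of a unigene in the BLAST table and the vertical axis the number in its CDS identifier. The 375 listed unigenes (dark points, CDS from the comparison lists) form 1 rising line, while the 57 unigenes with a sugar label (orange crosses, CDS from the library files) stand in a few columns, most of them far from the line.

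The levels were looked at by label as well. The 27 unigenes labelled as leaf photosynthesis proteins had a median level at percentile 55.2 of all unigenes with a CDS, and the 86 labelled as cytosolic ribosomal proteins, normally among the most abundant transcripts, had percentile 55.3. The 57 with a sugar label stood at percentile 52.2. The 15 labelled floral organ identity stood at 51.5, the 9 labelled anther and pollen at 68.4 and the 6 labelled phloem at 14.6. The tissues could not be checked from these labels. For 1340 CDS that the lists and the BLAST table give to different unigenes, the mean levels of both unigenes had a Spearman rho of 0.004 across CDS.

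The authors' 4 lists hold 2831 entries, of which 17 concern sugar-related CDS: 13 CDS, all of them also among the names of the 57 unigenes, and 0 of 13 paired with the same unigene there. By list, 4 of 663 entries were sugar-related for gynoecious against hermaphrodite plants, 8 of 1058 for gynoecious against monoecious, 4 of 500 for hermaphrodite against andromonoecious and 1 of 610 for monoecious against andromonoecious. The listed log2 ratio followed from the listed RPKM within 0.02 for 1813 of the 2831 entries (64%), and for 8 of the 13 sugar CDS. Those 8 are given with folds, and the other 5 with their reads only. The authors chose all of them for a difference between these same libraries, so their values are a description and carry no test. Folds are ratios of TMM-scaled reads with exact 95% binomial (Clopper-Pearson) intervals that cover counting error only. In a bulk library, fewer cells of a type and less RNA per cell cannot be told apart. In the library files the unigenes of SWEET15, SWEET12, STP10, STP7, sucrose-phosphate synthase 1 and trehalose-phosphate phosphatase are marked as not mapped. The names of these CDS thus rest on the lists alone. The unigenes of SWEET17 and acid beta-fructofuranosidase carry other names there, a ribosomal protein and a helicase.

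Among the carriers, SWEET15 (MELO3C022341, Unigene35162) had by far the most reads of the 8. In Arabidopsis SWEET15 is a sucrose carrier of the plasma membrane, known from senescing leaves and from seeds. It had 1193 reads in the hermaphrodite, 2085 in the andromonoecious, 28 in the gynoecious and 1416 in the monoecious library, or 74.1, 137, 1.80 and 90.2 RPKM in that order. The gynoecious library alone was low. Its level there was 53.9-fold lower than in the monoecious library (interval 37.2 to 81.5), and the authors' deposited table gives a log2 ratio of -5.64 for gynoecious over monoecious. The hermaphrodite level was 40.6-fold higher than the gynoecious (27.9 to 61.3) and the andromonoecious 86.0-fold higher (59.3 to 130). The 3 other libraries lay closer together, with andromonoecious over monoecious at 1.59-fold (1.49 to 1.71). For scale, 6.51% of 34821 unigenes with 50 reads or more over both libraries were at least 4-fold lower in gynoecious than in monoecious plants.

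SWEET12 (MELO3C026183, Unigene47531), in Arabidopsis a sucrose carrier that supplies the phloem, was low throughout. It had 0 reads in the hermaphrodite, 14 in the andromonoecious, 2 in the gynoecious and 35 in the monoecious library. The libraries of both sex types with male flowers thus had more reads than those without. Taking 3 reads as the floor for a count of 0, the hermaphrodite level was 13.1-fold lower than the monoecious. The exact interval of that ratio reached down to 10.1-fold. The gynoecious level was 18.7-fold lower than the monoecious (4.796 to 160). SWEET12 is the 1 sugar-related CDS among 129 entries of the authors' list for the g locus, and their list for the a locus has 0 among 128.

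SWEET17 (MELO3C000200, Unigene2979), a fructose carrier of the vacuole membrane in Arabidopsis, had 119 reads in the hermaphrodite, 24 in the andromonoecious, 66 in the gynoecious and 20 in the monoecious library. Here the 2 sex types without male flowers were the higher ones. The hermaphrodite level was 4.09-fold higher than the andromonoecious (2.62 to 6.63) and 5.31-fold higher than the monoecious (3.29 to 9.01), and the gynoecious was 3.09-fold higher than the monoecious (1.85 to 5.39). SWEET17 is on the list for hermaphrodite against andromonoecious plants only, a comparison in which 1.1% of 34717 unigenes were at least 4-fold higher.

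Both sugar transport proteins of the set had an extreme level in the gynoecious library, the highest for STP10 and the lowest for STP7. STP10 (MELO3C008581), an Arabidopsis hexose carrier of pollen tubes, had 9 reads in the hermaphrodite, 10 in the andromonoecious, 31 in the gynoecious and 4 in the monoecious library, and was 7.27-fold higher in gynoecious than in monoecious plants (2.57 to 28.3). STP7 (MELO3C010257), which carries pentoses in Arabidopsis, had 14 hermaphrodite, 15 andromonoecious, 3 gynoecious and 36 monoecious reads. STP7 was 12.8-fold lower in gynoecious than in monoecious plants (4.04 to 65.0). Its monoecious level was also 2.88-fold above the hermaphrodite (1.52 to 5.78) and 2.22-fold above the andromonoecious (1.18 to 4.36). With so few reads the intervals stay wide.

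Of the enzymes, acid beta-fructofuranosidase (MELO3C005560), an invertase that cleaves sucrose at acid pH, had 2 reads in the hermaphrodite, 24 in the andromonoecious, 10 in the gynoecious and 8 in the monoecious library. The hermaphrodite level was 14.6-fold lower than the andromonoecious (3.61 to 127). Sucrose-phosphate synthase 1 (MELO3C010300), which makes the precursor of sucrose, had 47 hermaphrodite, 23 andromonoecious, 9 gynoecious and 22 monoecious reads, and the hermaphrodite level was 4.97-fold higher than the gynoecious (2.41 to 11.5). Trehalose-phosphate phosphatase (MELO3C011362), which removes the trehalose-phosphate signal, had 4, 2, 18 and 2 reads in the hermaphrodite, andromonoecious, gynoecious and monoecious libraries. It was 8.44-fold higher in gynoecious than in monoecious plants (2.02 to 75.0). Each of the 4 libraries was the highest for 2 of the 8 CDS.

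**Figure D2:**
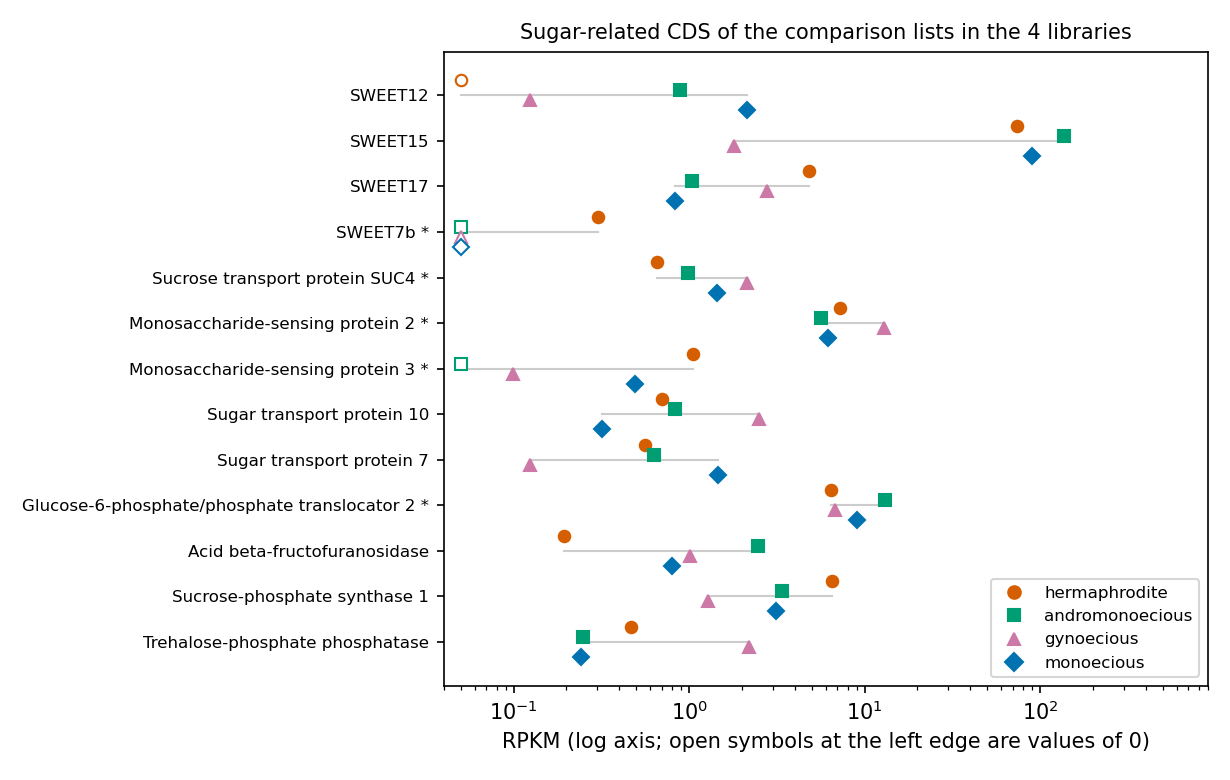
RPKM on a log axis of the 13 sugar-related CDS of the authors' comparison lists, with 1 symbol per library; an asterisk marks the 5 CDS whose listed ratio does not follow from their listed RPKM. SWEET15 stands alone at 74.1 to 137 RPKM in 3 libraries with the gynoecious at 1.80, and most other CDS lie under 10 RPKM.

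For the other 5 CDS the reads and the listed ratio do not go together, and no fold is given. SUC4 (MELO3C011115), a sucrose and proton symporter, had 14 hermaphrodite, 20 andromonoecious, 44 gynoecious and 30 monoecious reads, while the authors' deposited table gives a log2 ratio of 3.41 for gynoecious over monoecious. Monosaccharide-sensing protein 2 (MELO3C013489), a carrier of the vacuole membrane, had 393, 289, 673 and 328 reads in the same order of libraries, beside a listed log2 ratio of -11.02 for gynoecious over monoecious in the authors' deposited table. Glucose-6-phosphate/phosphate translocator 2 (MELO3C007378), which brings glucose phosphate into plastids, had 136, 260, 137 and 187 reads. Monosaccharide-sensing protein 3 had 11, 0, 1 and 5 reads, and SWEET7b 4, 0, 0 and 0.

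The lists were also searched for other genes of sugar metabolism. They name 1 CDS of the hexose kinases, 1 of the raffinose family, 4 of starch, 3 of sugar phosphates and 3 polyol carriers, of which 0, 0, 4, 2 and 1 had a listed ratio that follows from the listed RPKM. Inactive beta-amylase 4 (MELO3C014105), known in Arabidopsis as a chloroplast protein of starch breakdown without catalytic activity, had 205 reads in the hermaphrodite, 354 in the andromonoecious, 19 in the gynoecious and 339 in the monoecious library. It was 19.0-fold lower in gynoecious than in monoecious plants (12 to 32.01), low in the same library as SWEET15. Beta-amylase (MELO3C018794), which releases maltose from starch, had 58 hermaphrodite, 48 andromonoecious, 22 gynoecious and 117 monoecious reads and was 5.67-fold lower in gynoecious than in monoecious plants (3.58 to 9.40). The 1,4-alpha-glucan-branching enzyme (MELO3C026536), which branches starch, had 26, 11, 10 and 44 reads in the same order and was 4.69-fold lower (2.33 to 10.5). The inhibitor of alpha-amylase and subtilisin (MELO3C000887) had 12, 46, 10 and 105 reads and was 11.2-fold lower (5.86 to 24.0). All 4 CDS found by starch words, the inhibitor among them, were lower in the gynoecious than in the monoecious library. The authors listed all 4 for a difference in this comparison, so the count carries no test. Of 34821 unigenes with 50 reads or more over both libraries, 6.51% were at least 4-fold lower there and 5.02% higher. Inactive beta-amylase 4 is also on the list for gynoecious against hermaphrodite plants, and the inhibitor on that for hermaphrodite against andromonoecious plants.

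Polyol transporter 5 (MELO3C012547), which carries sugar alcohols with protons, ran the other way. It had 20 reads in the hermaphrodite, 18 in the andromonoecious, 109 in the gynoecious and 6 in the monoecious library, and was 17.0-fold higher in gynoecious than in monoecious plants (7.58 to 47.4). The triose phosphate translocator (MELO3C012148), which exports sugar phosphate from chloroplasts, had 22, 33, 45 and 8 reads in the same order and was 5.27-fold higher (2.46 to 12.95). Cytosolic fructose-1,6-bisphosphatase (MELO3C011682), an enzyme on the way to sucrose, had 24, 53, 12 and 12 reads. It was 4.78-fold higher in andromonoecious than in monoecious plants (2.52 to 9.83).

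The 57 unigenes with a sugar label remain as transcripts with measured levels and uncertain names. By label they fall into 13 hexose carriers, 10 sucrose-cleaving enzymes, 8 enzymes of trehalose phosphate, 7 SWEET carriers, 5 enzymes of sucrose synthesis, 5 raffinose synthases, 3 sucrose transporters, 3 nucleotide sugar transporters, 2 plastid translocators and 1 invertase inhibitor. The matches in their BLAST rows were 30 to 2464 nt long (median 236), 18 were under 100 nt, and 26 had at least 95% identity over 100 nt or more. By the check above, these cannot be read as matches to the CDS named beside them. Their reads summed over libraries ran between 1 and 81541, and 47 of the 57 passed the filter on low values. The mean level was under 1 RPKM for 13 and over 10 RPKM for 14. For the 52 with reads in every library, the highest library was a median of 3.09-fold above the lowest, against 2.90-fold for all 58046 such unigenes. The hermaphrodite library was highest for 21, the andromonoecious for 9, the gynoecious for 15 and the monoecious for 12, against 26.2%, 21.2%, 29.5% and 23.1% of all unigenes.

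**Figure D3:**
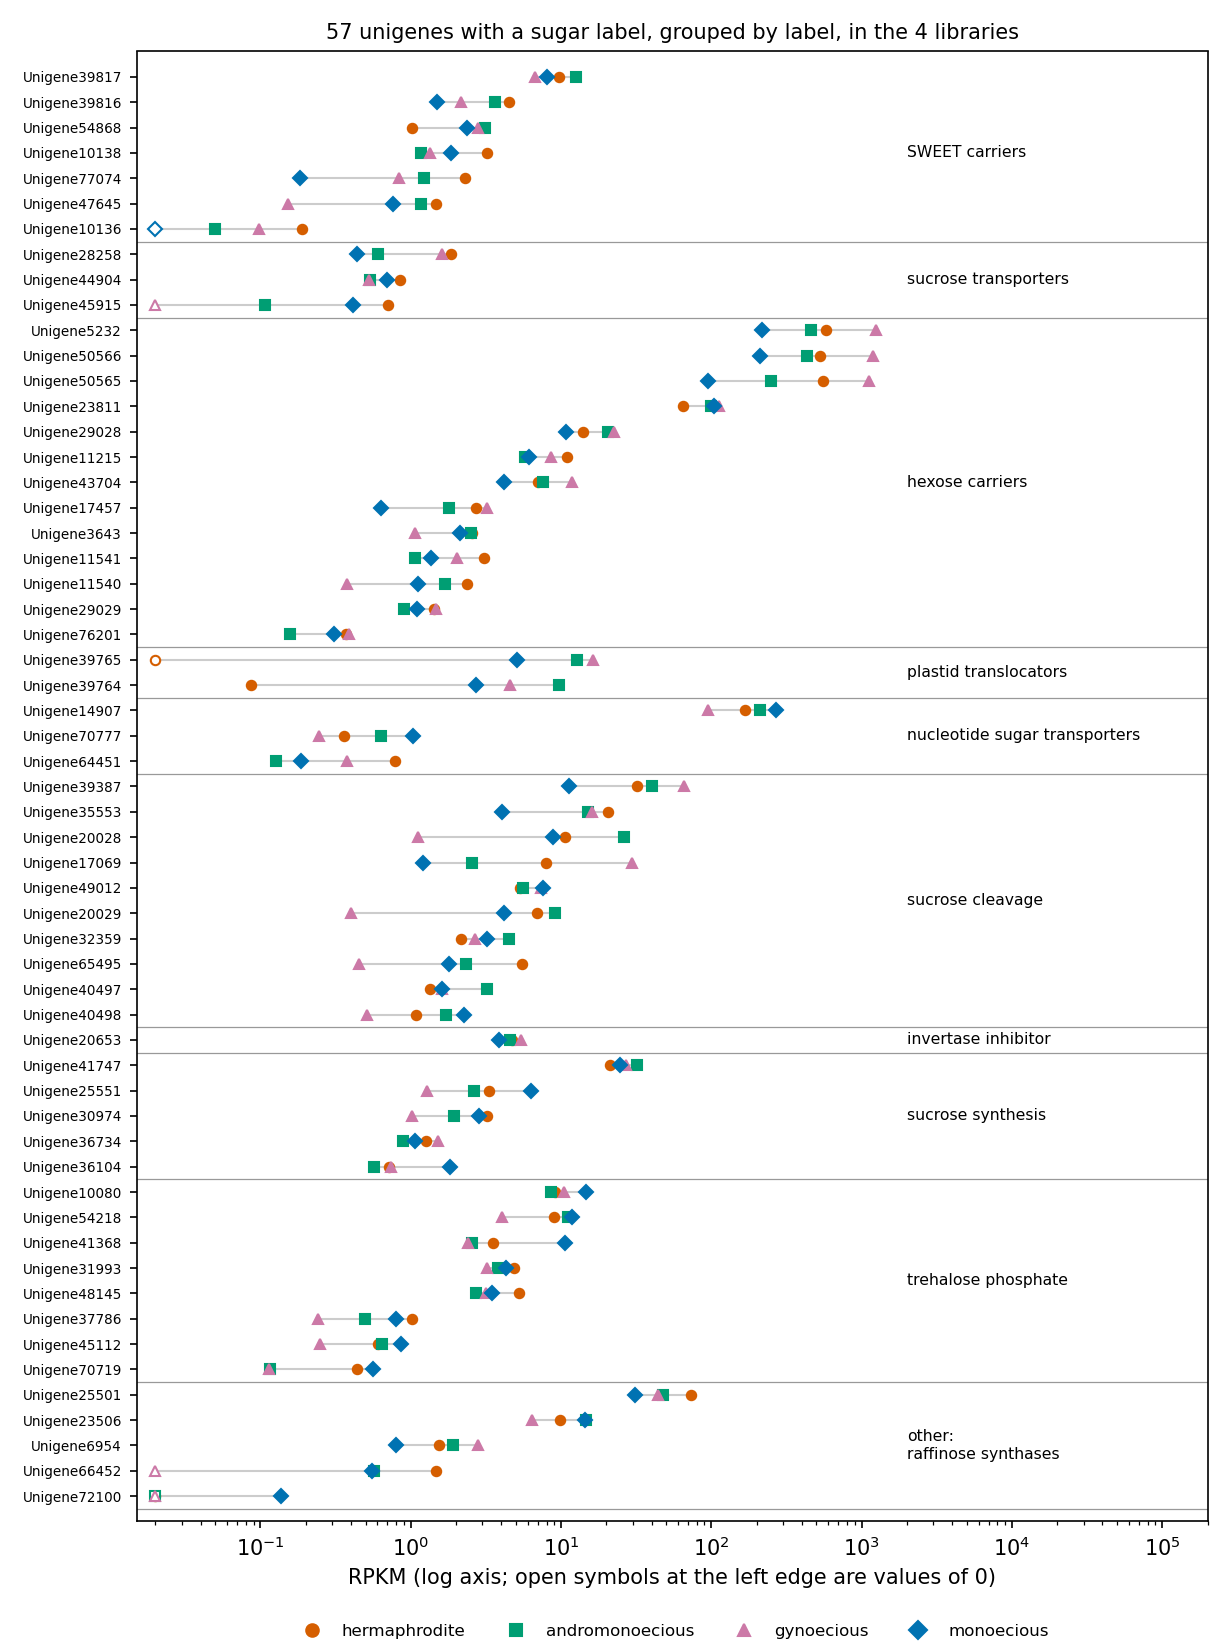
RPKM on a log axis of the 57 unigenes in the 4 libraries, grouped by label and ordered by mean level within a group. The 3 unigenes at the top of the hexose carrier group reach 1241 RPKM in the gynoecious library, and the 2 labelled plastid translocators are at 0.0868 and 0 RPKM in the hermaphrodite library.

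Among the labelled carriers, 3 unigenes with the label monosaccharide-sensing protein were the most abundant. Unigene5232 had 578 RPKM in the hermaphrodite, 458 in the andromonoecious, 1241 in the gynoecious and 218 in the monoecious library. Unigene50566 had 527, 434, 1191 and 210 RPKM and Unigene50565 had 552, 249, 1115 and 95.5 RPKM in the same order. All 3 were highest in the gynoecious and lowest in the monoecious library, and they stand in consecutive rows of the BLAST table, 3975 to 3977, so that the CDS order gives them neighbouring or shared CDS. Together they made up 1657, 1141, 3547 and 524 RPKM in the hermaphrodite, andromonoecious, gynoecious and monoecious libraries, while the other 54 unigenes summed to 552, 648, 538 and 610 RPKM. The sum over all 57 thus follows these 3. Unigene23811, labelled ERD6-like 7, was the next most abundant of the labelled hexose carriers, with 64.3 hermaphrodite, 100 andromonoecious, 113 gynoecious and 105 monoecious RPKM.

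The pair of unigenes labelled glucose-6-phosphate/phosphate translocator 2 was near 0 in the hermaphrodite library and present in the 3 others. Unigene39764 had 2 hermaphrodite, 210 andromonoecious, 101 gynoecious and 61 monoecious reads. Unigene39765 had 0, 131, 170 and 54 reads. With a floor of 3 reads, the hermaphrodite level of Unigene39765 was 53.0-fold lower than the andromonoecious, 59.5-fold lower than the gynoecious and 20.2-fold lower than the monoecious. Exact intervals can reach below these values. They stand in neighbouring rows of the BLAST table, between listed CDS MELO3C002383 and MELO3C002388. The part of the hermaphrodite library's own flow cell in this was not tested.

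The 7 labelled SWEET unigenes had a median level of 1.89 RPKM, against 1.57 RPKM for all unigenes, and the 3 labelled sucrose transporters one of 0.653 RPKM. Unigene39817 (labelled SWEET15) had 9.72 hermaphrodite, 12.5 andromonoecious, 6.70 gynoecious and 8.01 monoecious RPKM. Its gynoecious over monoecious ratio was 0.775-fold (0.593 to 1.01), where the unigene that the lists name SWEET15 was 53.9-fold lower. The 3 unigenes labelled SUC2, SUC3 and SUC4 averaged 0.306, 0.653 and 1.13 RPKM, and 1 of the 3 passed the filter. Unigene77074 (labelled SWEET12) had 51 hermaphrodite, 26 andromonoecious, 18 gynoecious and 4 monoecious reads, and was 11.4-fold higher in hermaphrodite than in monoecious plants (4.18 to 43.4). Among the 3 labelled nucleotide sugar transporters, Unigene14907 had 168 hermaphrodite, 210 andromonoecious, 95.4 gynoecious and 271 monoecious RPKM, and the other 2 averaged under 1 RPKM.

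Of the 10 unigenes labelled as sucrose-cleaving enzymes, 3 labelled sucrose synthase varied most between libraries. Unigene20028 had 344 hermaphrodite, 807 andromonoecious, 35 gynoecious and 280 monoecious reads, and Unigene20029 had 356, 443, 20 and 210. Both were lowest in the gynoecious library, and both carry consecutive numbers and rows. Unigene17069 had 225 hermaphrodite, 68 andromonoecious, 805 gynoecious and 33 monoecious reads, so that it was highest where the other two were lowest. Andromonoecious over gynoecious was 26.6-fold for Unigene20028 (19.0 to 38.5) and 25.6-fold for Unigene20029 (16.4 to 42.3), and gynoecious over monoecious was 22.9-fold for Unigene17069 (16.2 to 33.5). All 3 lie between listed CDS MELO3C005250 and MELO3C005259 in the row order, away from the CDS whose names they carry. Unigene39387, labelled beta-fructofuranosidase, had 32.2 hermaphrodite, 40.4 andromonoecious, 65.8 gynoecious and 11.2 monoecious RPKM. Unigene35553, labelled cell wall invertase CWINV3, had 20.4, 15.03, 16.2 and 4.06 RPKM in that order. Unigene65495, labelled acid beta-fructofuranosidase and with a match of 30 nt in its BLAST row, had 50, 20, 4 and 16 reads. The unigene labelled invertase inhibitor, Unigene20653, stayed between 3.88 and 5.38 RPKM in the 4 libraries.

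Among unigenes labelled for sucrose synthesis, Unigene41747 (sucrose-phosphatase 1) led with 21.2 hermaphrodite, 32.01 andromonoecious, 27.1 gynoecious and 24.5 monoecious RPKM. Unigene25551 (labelled sucrose-phosphate synthase 2) had 91, 68, 34 and 169 reads, with gynoecious 5.30-fold lower than monoecious (3.65 to 7.91). Unigene41368 (labelled trehalose-phosphate phosphatase) had 115, 79, 76 and 341 reads in the same order, and gynoecious was 4.79-fold lower than monoecious (3.72 to 6.22). Unigene10080, labelled trehalose-phosphate synthase 10, led its group with 9.10, 8.62, 10.5 and 14.6 RPKM. Of the 5 labelled raffinose synthases, Unigene25501 had 73.3 hermaphrodite, 47.4 andromonoecious, 44.4 gynoecious and 31.1 monoecious RPKM, and 2 did not pass the filter.

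The a locus comparison set hermaphrodite and andromonoecious (aa) against gynoecious and monoecious (AA) libraries, by limma on log2(RPKM + 1) over 49238 unigenes. The p-values measure the spread between these 4 bulks only. None of the 47 unigenes with a sugar label that were tested passed (0 called at a Benjamini-Hochberg adjusted p under 0.05; 2 at an unadjusted p under 0.05, against 2.73% of all; 0 by edgeR and 0 by DESeq2). The largest differences were those of Unigene20028 (1.96 ± 0.75 SE, adjusted p = 1) and Unigene20029 (1.73 ± 0.64, adjusted p = 1). Each was higher in both aa libraries than in both AA libraries. Over all unigenes limma called 2 higher (0.00406%) and 4 lower (0.00812%). The levels of both aa libraries lay above both AA libraries for 11 of the 57, against 14% of all unigenes, and below for 4, against 12%. The median log2 change was 0.14 over the 47 and 0.00 over all.

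The labelled g locus comparison set gynoecious and andromonoecious (labelled gg) against hermaphrodite and monoecious (labelled GG) libraries. It holds for the sample labels only. With aaGG and aagg exchanged, as in the headers of the locus tables, gg would be the hermaphrodite and gynoecious libraries. Of the 47 unigenes, 0 were called by limma, edgeR or DESeq2, and 3 had an unadjusted limma p under 0.05, against 5.07% of all unigenes. The largest differences were those of Unigene39765 (2.64 ± 0.78 SE, limma adjusted p = 0.914) and Unigene39764 (1.94 ± 0.65, adjusted p = 0.914), both carried by the hermaphrodite library near 0. Of the 57, 9 did not overlap in the higher direction, against 16.4% of all, and 10 in the lower, against 16.6%. The medians were 0.01 over the 47 and -0.01 over all.

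Sex types with male flowers (andromonoecious and monoecious) were then set against those without (hermaphrodite and gynoecious). With aaGG and aagg exchanged, as in the headers of the locus tables, this would be the g locus comparison. Limma called 0 of the 47 and 1 of all unigenes, higher (0.00203%). Of the 47, 4 had an unadjusted p under 0.05, against 8.26% of all. Unigene17069 was lower with male flowers by 2.57 on the log2 scale (-2.57 ± 0.61 SE, limma adjusted p = 0.586), and Unigene50565 by 2.34 (-2.34 ± 0.58, adjusted p = 0.586). DESeq2 on the recovered reads called both (adjusted p = 0.00204 and 0.0375), among 277 called of the 49238 unigenes. EdgeR's quasi-likelihood test called 0 of all. Both unigenes were lower in both libraries with male flowers. Non-overlap was seen for 7 of the 57 in the higher direction, against 14.5% of all, and for 15 in the lower, against 21.9%. The medians were 0.04 over the 47 and -0.12 over all.

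**Figure D4:**
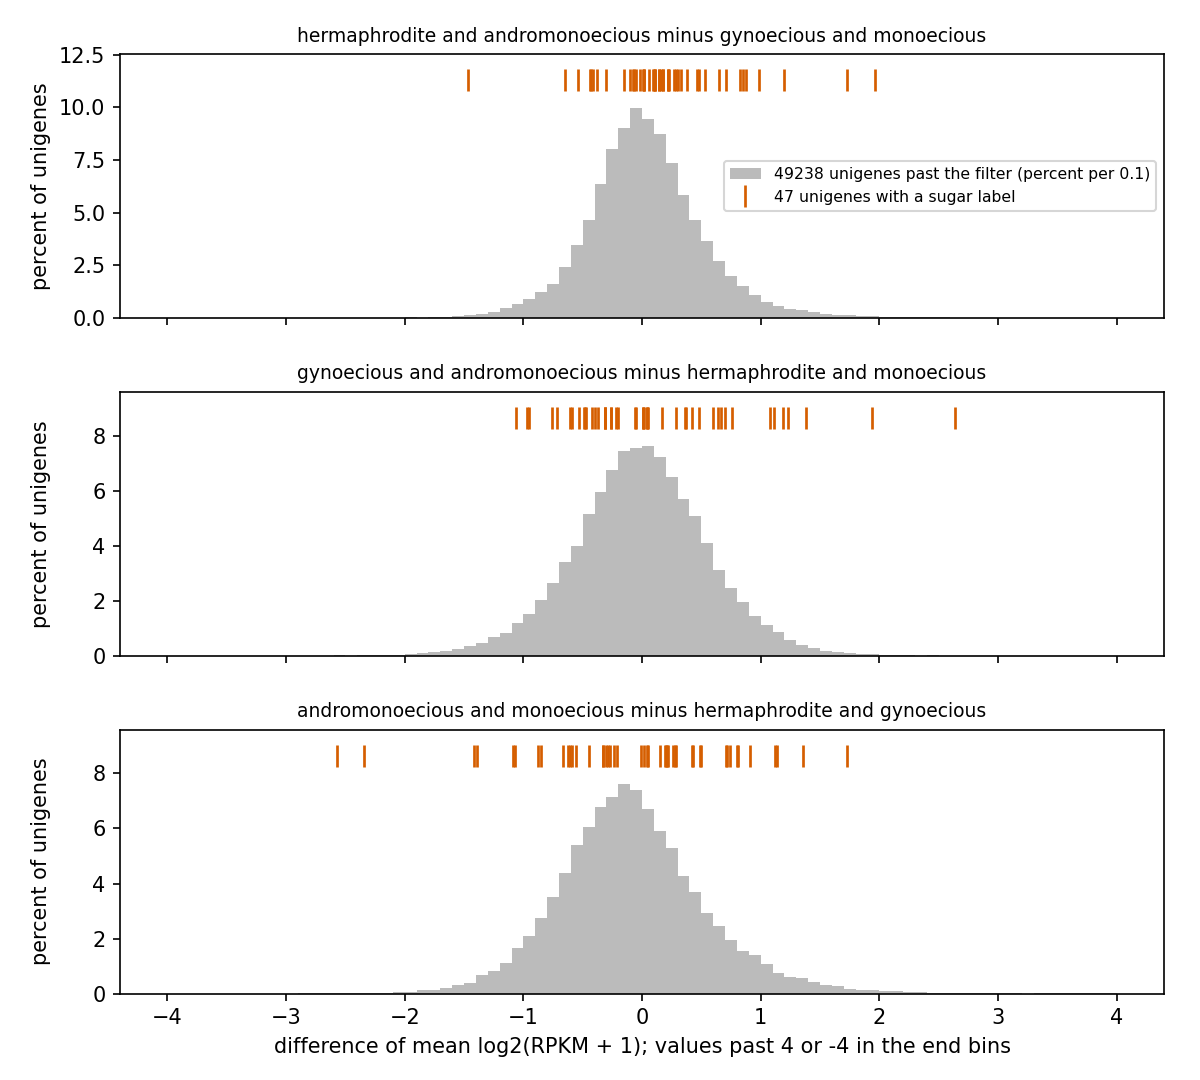
Differences of mean log2(RPKM + 1) for the 3 ways of setting 2 libraries against 2, with all 49238 tested unigenes as grey bars (percent of unigenes per 0.1) and the 47 tested unigenes with a sugar label as orange ticks. The ticks lie on both sides of 0, with single unigenes out to -2.57 and 2.64.

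Single libraries were set against each other with no test. A unigene counted where both libraries together had 50 reads or more and the ratio reached 4-fold. Between hermaphrodite and andromonoecious plants 0 of 40 unigenes with a sugar label were higher (1.1% of all) and 2 lower (2.43%). Between hermaphrodite and gynoecious plants 4 of 39 were higher (3.53%) and 2 lower (2.19%), and between hermaphrodite and monoecious plants also 4 of 39 (2.1%) and 2 (2.46%). Between andromonoecious and gynoecious plants 2 of 37 were higher (5.18%) and 1 lower (2.18%), and between andromonoecious and monoecious plants 0 of 37 were higher (2.35%) or lower (1.97%). Between gynoecious and monoecious plants 5 of 36 were higher (5.02%) and 5 lower (6.51%). Of the 57, 40 had enough reads in at least 1 pair, and 16 of these passed in at least 1 pair, against 18.3% of 39444 unigenes. Some of the 16 carry consecutive numbers, and no test was made. The 2 labelled plastid translocators made up every lower count of the hermaphrodite library, and the pairs share libraries.

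Labels of neighbouring pathways were counted too. Of 64 unigenes labelled as hexose kinases, raffinose family, starch, sugar phosphate or polyol carrier genes, 42 were tested, 0 were called by limma or edgeR in any of the 3 comparisons, 1 with a starch label was called by DESeq2 (0.676% of all unigenes tested), and 9 had an unadjusted limma p under 0.05 in at least 1 (16% of all). These labels come from the same library files.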

How the data were processed

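Sequencing libraries of 4 sex types were analysed, with 1 library each. The deposited library files give RPKM per unigene, and the authors' comparison lists give raw read counts beside RPKM, log2 ratios, p-values and FDR, per the file headers. The BLAST table gives the percent identity of each match, computed by the authors per the file headers. The sources used here name no assembler, aligner or CDS release. Whole reads were recovered from RPKM and the library totals in the headers, taking the shortest length between 200 and 20000 nt that gave whole reads: this worked for 100% of 76260 unigenes, matched 996 of 1049 listed unigenes in length and reads (94.9%), and returned the reads of 96.7% of 2000 simulated ones. Between 66492 and 69811 unigenes had a read.

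Limma 3.58.1 on log2(RPKM + 1) was fitted on the 49238 unigenes that passed edgeR's filterByExpr (minimum count 10), with Benjamini-Hochberg adjustment over all of them at 0.05, two-sided. The fit was also run on simulated reads in which both libraries of a side shared the same mean. That run cannot show how the fit handles the second locus, which differs within each side here. On this scale the change of a low unigene comes out too small. Each side has 2 libraries, so effects of the second locus count as spread. Pairs used TMM-scaled reads (edgeR 4.0.16, prior count 1). Where a library had 0 reads, a floor of 3 reads in that library gave the fold, and the exact interval can reach below it. Intervals are exact binomial at 95%, computed with SciPy, and cover counting error only, since each sex type has 1 library. No molecular identifiers are stated, so duplicate reads could not be told from separate molecules and the intervals may be too narrow.

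Alternatives were a pseudocount of 0.1, no filter, TMM factors, leaving out each library, edgeR and DESeq2 1.42.0 on the recovered reads, and for pairs library totals, 100 reads and 2-fold. The share of values that came out whole was 100%, and the count tests called 0 (edgeR) and 27 (DESeq2) unigenes for the a locus, 0 and 29 for labelled g, and 0 and 277 for male flowers. The unigenes and word lists were chosen with earlier results of these data known. Named are the 4 most abundant unigenes per label group, the 4 with the largest change per comparison, those called by a tool and the 2 most changed per pair and direction. Some of these are given only within counts and ranges. UDP-sugar transporters were kept as a group of their own. The 13 listed CDS and the check of labels were added after the data were seen. The 16 per-library columns of the locus tables were not used. A RefSeq gene table held 0 of the 57 CDS, so no sequence or coordinate is given.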

Additional observations from a re-analysis of the deposited data

Results flagged for a closer look

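Unigene17069, which carries the label sucrose synthase 2, moved in opposite directions in the pairs that the sample labels read as the a locus effect on each side of g. It had 225 reads in the hermaphrodite and 33 in the monoecious library (log2 ratio 2.57 for hermaphrodite over monoecious), and 68 in the andromonoecious against 805 in the gynoecious library (log2 ratio -3.34 for andromonoecious over gynoecious). The ratios differ by 5.91 on the log2 scale. The difference was not tested, since each ratio rests on 1 library a side, and the headers of the locus tables would pair the libraries otherwise.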

How the results depend on the processing

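No paired analysis was possible because each sex type has 1 library. Of 93 recomputed values, 64 kept within 1.5 times the reported count or within the spread of the library medians. The count of unigenes called moved most. For the a locus (6 called) it was 0 with a pseudocount of 0.1, no filter, TMM factors or edgeR, 27 with DESeq2, and 0 to 258 without 1 library. For labelled g (0 called) it was 29 with DESeq2 and 0 to 205 without 1 library. For male flowers (1 called) it was 0 with a pseudocount of 0.1, no filter or edgeR, 277 with DESeq2, and 0 to 89 without 1 library. Of the unigenes with a sugar label, 0 were called for the a locus except without the monoecious library, where Unigene20028 (adjusted p = 0.0344) and Unigene20029 (0.0419) passed in limma, so the range was 0 to 2. For male flowers DESeq2 called 2. The median change with male flowers (0.04) ranged between -0.19 (without the gynoecious library) and 0.046 (without the hermaphrodite) when 1 library was left out, and was 0.199 with a pseudocount of 0.1 and 0.14 with TMM factors. Past 2-fold instead of 4-fold, the counts were 9 for hermaphrodite over andromonoecious, 18 over gynoecious and 16 over monoecious, 16 for andromonoecious over gynoecious and 14 over monoecious, and 18 for gynoecious over monoecious. With at least 100 reads the count for hermaphrodite over monoecious was 3 instead of 6, and by library totals that for andromonoecious over monoecious was 1 instead of 0. The cause was not tested. Of the 57, 40 had 50 reads or more in at least 1 pair, and for the others no 4-fold difference could be counted. Among those others were 14 with under 50 reads in all.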

Other observations

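The mismatch of names is not particular to sugar words. It covers 11140 of the 11737 unigenes with a CDS, those whose name the library files share with the BLAST table, while the 597 others had their listed CDS wherever they were listed (23 of 23). In 96.6% of 9295 rows of the BLAST table, those whose unigene had reads in every library, the match ended within the recovered length of the unigene. Of the 57, Unigene11540 is listed under MELO3C005265 and Unigene36734 under MELO3C005259, where the library files name MELO3C010946 and MELO3C012320. Any result that takes gene names of these 11140 unigenes from the library files carries the same limit.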
